A study of Mus musculus with 6 samples.

Results

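The 43 genes described here encode the DNA replication machinery of the mouse: factors that license origins, proteins of the replication fork, replicative polymerases, enzymes of deoxynucleotide supply and regulators of entry into S phase. They were chosen by gene name, with earlier results of these data known, and all 43 were found among the 21436 genes of the deposited table. Expression was measured by RNA sequencing in wild-type 3T3-L1 cells, a mouse embryonic fibroblast line used as a model of preadipocytes. The 3 co-culture libraries came from 3T3-L1 cells below a Transwell insert that held human umbilical cord mesenchymal stem cells, and the 3 libraries of cells alone came from 3T3-L1 cells without them. Both groups spent 72 h in the same adipogenic medium, which held 2 µM rosiglitazone, 1 µM dexamethasone, 0.5 mM IBMX, 10 mg/L insulin and 10% serum, and the membrane of the insert had 0.4 µm pores. The comparison asked how transcript levels in the mouse cells differed when the human cells were present. All libraries come from 1 cell line. The labels do not say whether replicates were separate cultures, so p-values reflect the scatter among these libraries alone, and that scatter may be technical.

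Replication starts at origins that are first licensed. The origin recognition complex binds DNA, Cdc6 and Cdt1 join it, and together they load the ring-shaped MCM helicase, while geminin blocks Cdt1. At the start of S phase Cdc45 and the GINS complex bind the MCM ring to form the active helicase, primase and polymerase alpha lay down primers, and polymerases epsilon and delta copy the strands with the sliding clamp PCNA, which the RFC complex loads. Ribonucleotide reductase and thymidylate synthase supply deoxynucleotides. Growth-arrested 3T3-L1 preadipocytes given a hormonal cocktail re-enter the cell cycle before they differentiate, a phase known as mitotic clonal expansion, and many replication genes are targets of E2F transcription factors.

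The promoters of 4 genes whose levels differed between the groups are printed here because E2F, CCAAT box and CHR motifs are known from cell cycle promoters. They are the 4 with the smallest p of those that passed the test and had an entry in the RefSeq promoter table (GRCm38.p6). Each runs 5′ to 3′ from 250 bases before to 50 bases after a start listed there. For Mcm2, Rrm2 and Orc6 this start is the first base of the gene, and for Rpa1 it lies inside the gene's bounds. Capitals mark matches, on either strand, to an E2F motif spelled TTCCCGC or else TTCGCGC, likewise TTGCCGC and also TTGGCGC, to the CCAAT box (its own letters), or to a CHR motif spelled TTTGAA or else TTCGAA.
Mcm2, chr6:88898731-88899030, minus strand: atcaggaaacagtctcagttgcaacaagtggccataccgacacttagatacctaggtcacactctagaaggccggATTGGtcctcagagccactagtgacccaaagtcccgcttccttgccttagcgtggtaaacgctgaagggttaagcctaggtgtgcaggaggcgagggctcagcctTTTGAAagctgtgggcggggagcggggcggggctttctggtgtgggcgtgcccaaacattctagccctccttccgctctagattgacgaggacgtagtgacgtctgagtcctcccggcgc
Rrm2, chr12:24708004-24708303, plus strand: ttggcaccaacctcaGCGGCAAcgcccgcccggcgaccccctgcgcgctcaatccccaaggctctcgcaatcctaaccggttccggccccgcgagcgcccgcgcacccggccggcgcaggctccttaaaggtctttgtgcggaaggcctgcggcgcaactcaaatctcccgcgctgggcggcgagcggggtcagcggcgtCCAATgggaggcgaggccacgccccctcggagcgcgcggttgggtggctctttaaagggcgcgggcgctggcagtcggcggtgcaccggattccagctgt
Rpa1, chr11:75348334-75348633, minus strand: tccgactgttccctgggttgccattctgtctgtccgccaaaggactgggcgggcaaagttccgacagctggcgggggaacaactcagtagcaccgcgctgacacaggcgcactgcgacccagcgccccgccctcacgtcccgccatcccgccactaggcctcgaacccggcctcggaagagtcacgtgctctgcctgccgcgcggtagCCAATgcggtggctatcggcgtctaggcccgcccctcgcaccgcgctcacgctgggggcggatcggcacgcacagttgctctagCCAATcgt
Orc6, chr8:85299382-85299681, plus strand: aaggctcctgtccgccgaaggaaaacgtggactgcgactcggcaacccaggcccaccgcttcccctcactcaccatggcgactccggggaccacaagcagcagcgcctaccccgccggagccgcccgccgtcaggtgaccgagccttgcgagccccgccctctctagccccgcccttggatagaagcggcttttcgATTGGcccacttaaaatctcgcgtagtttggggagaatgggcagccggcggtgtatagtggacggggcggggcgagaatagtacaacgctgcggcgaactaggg
Read on the opposite strand, GCGGCAA is TTGCCGC and ATTGG is CCAAT. Of the 4 promoters, that of Rrm2 held an E2F match, all 4 held a CCAAT match and that of Mcm2 held a CHR match.

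Of the 43 genes, 34 had at least 1 of 41 promoters in the table. An E2F match was found in 23 of the 41 (56.1%), against 9.57% of all 32851 promoters of the same length, and a CCAAT match in 25 (61.0%), against 37.4%. CHR matches were found in 7 (17.1%), against 19.2%. The median GC content was 58.3% in the 41 promoters and 52.7% in all promoters, with medians of 21 and 7 CpG dinucleotides, and the letters of the E2F motif hold CpG. Among genes with a promoter in the table, an E2F match was present for 2 of 5 that were lower in co-culture (Lig1 and Rrm2), 0 of 1 that was higher, 16 of 26 that did not pass the test and 2 of 2 that were not tested. A match describes the letters only and does not show binding.

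Levels are in FPKM, a read number scaled to gene length and library total. Library totals recovered from the values were 29603755 to 37612585 reads in co-culture and 36119750 to 38357563 reads in cells alone. Library 1 of cells alone stood somewhat apart from its group, with a mean chi-square per gene of 9.26 and 11.9 against the other two, where the other pairs within a group had 3.42 to 4.82 and pairs between groups 24.6 to 33.3. The fibroblast genes vimentin (Vim) and fibronectin (Fn1) were high, Vim at 1346 ± 17.7 FPKM in co-culture and 1202 ± 61.8 FPKM in cells alone and Fn1 at 1207 ± 29.8 FPKM in co-culture and 1327 ± 90.6 FPKM in cells alone (SD, n = 3 each). Of 9 tested fibroblast markers 5 were higher and 1 was lower in co-culture, against 13.9% and 17.9% of all tested genes. The 5 were 3 without co-culture library 3 or without library 2 of cells alone, and the 1 was 0 without co-culture library 1 and 2 without library 1 of cells alone. Among adipocyte markers, Lpl was lower at 190.5 ± 6.89 FPKM in co-culture and 226 ± 8.34 FPKM in cells alone (SD, n = 3 each; adjusted p = 0.00135), Adipoq had 0 reads in co-culture and 1 in cells alone, Plin1 had 12 reads in each group, Pparg stood at 0.565 ± 0.0989 FPKM in co-culture and 0.688 ± 0.074 FPKM in cells alone, and Fabp4 reached 58.2 ± 0.74 FPKM in co-culture and 53.4 ± 3.04 FPKM in cells alone (SD, n = 3 each). Summed reads of 10 blood cell markers were 175 to 525 in co-culture and 458 to 842 in cells alone; 2 of the 5 that were tested were lower (Hbb-bs and Hba-a1), which was 4 without co-culture library 3 and 1 without co-culture library 2 or any 1 library of cells alone. The leukocyte gene Ptprc stood at 0.00455 FPKM in co-culture and 0.0105 FPKM in cells alone, and the part of the blood cell transcripts in the results was not tested. The 6 endothelial and epithelial markers in the table summed to 4 to 17 reads in co-culture and 9 to 13 in cells alone. Of 6 mesenchymal stromal markers 3 were tested, 2 were lower (Alcam and Cd44) and 1 was higher (Vcam1), and the summed FPKM of all 6 was 169 to 174 in co-culture and 171 to 174 in cells alone.

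Most of the replication genes differed little between the groups. Of the 43 genes, 40 had a mean of at least 1 FPKM and were tested, and 3 were below it (Orc1, Cdc6 and Pole). Among the 40, 6 were lower in co-culture (Mcm2, Orc6, Lig1, Rrm2, Tyms and Ccne2) and 2 were higher (Gins4 and Rpa1), at a Benjamini-Hochberg adjusted p below 0.05 in limma over all 10055 tested genes. The 6 lower genes are 15.0% of those tested, against 17.9% of all tested genes, and the 2 higher ones are 5.0%, against 13.9%. In either direction 8 of the 40 passed, against 31.8% of all tested genes. The median log2 change was −0.027 over the 40 genes and −0.0037 over all tested genes. In bulk RNA, fewer cells in S phase and less of a transcript per cell cannot be told apart.

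The changes that passed were small, with mean FPKM differing 1.12-fold to 1.51-fold. The groups did not overlap for 14 of the 40 genes, 11 of them lower in co-culture (27.5%, against 24.8% of all tested genes) and 3 higher (7.5%, against 21.3%). The 32 genes that did not pass had log2 changes of −0.20 to 0.099. Their 95% intervals, from −0.43 to 0.27 at the widest, all lay within 0.5 of 0, and those of 25 lay within 0.25 of 0. The 6 lower genes numbered 3 without co-culture library 1, 3 without co-culture library 2 and 2 without library 2 of cells alone. The 2 higher genes numbered 0 without co-culture library 1 or 3 or without library 2 of cells alone, and 1 without library 3 of cells alone. Mcm2 and Rrm2 passed with each of the 6 libraries left out in turn. With no filter on low values, 2 genes were lower and 0 were higher.

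**Figure D1:**
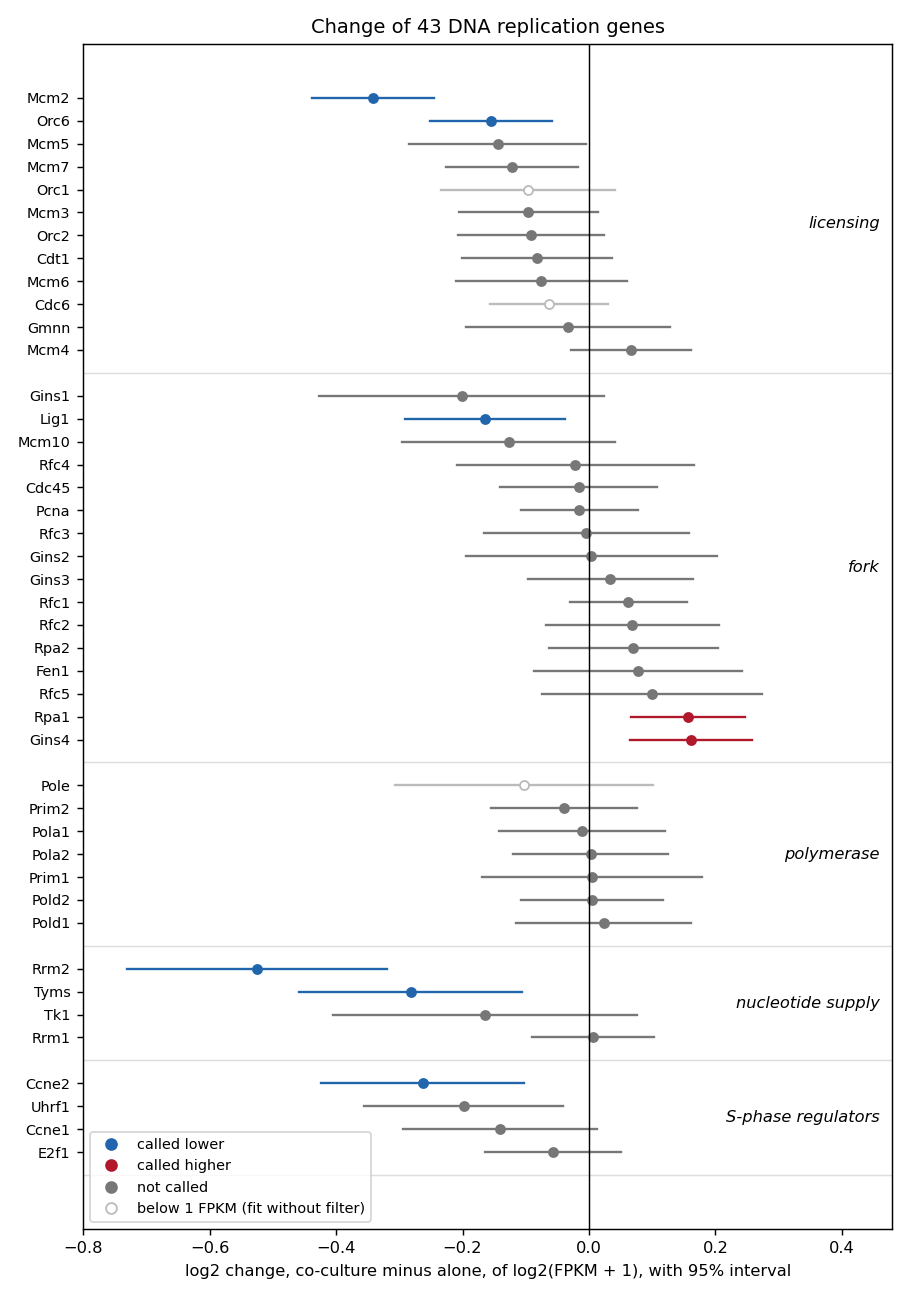
Log2 change of each of the 43 genes (co-culture minus alone, on the log2(FPKM + 1) scale) with its 95% interval, grouped by role. Blue points passed as lower, red as higher, grey points did not pass, and open points are the 3 genes below 1 FPKM, with values from the fit without a filter. Rrm2 (−0.52) and Mcm2 (−0.34) lie farthest to the left, and the 6 tested polymerase genes lie between −0.039 and 0.023.

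Of the 10 tested licensing genes 2 fell, and Mcm2 fell most. Mcm2 (Entrez gene 17216, chromosome 6 from 88883474 to 88898780, coordinates here and below from RefSeq GRCm38.p6) encodes a subunit of the MCM helicase and had 7.71, 7.76 and 7.92 FPKM in co-culture libraries 1 to 3, against 9.85, 10.3 and 10.3 FPKM in libraries 1 to 3 of cells alone. Each co-culture library was below every library of cells alone. The means were 7.79 ± 0.109 FPKM in co-culture and 10.1 ± 0.253 FPKM in cells alone (SD, n = 3 each), 1.3-fold lower (log2 change −0.34, SE 0.0438, adjusted p = 0.000284). The other 5 subunits of the ring did not pass. Mcm7 had 12.1, 12.2 and 11.9 FPKM in co-culture, against 14.1, 12.9 and 12.7 FPKM in cells alone, and its groups did not overlap (adjusted p = 0.0745). Mcm5 had 5.05, 5.95 and 5.75 FPKM in co-culture, against 6.39, 5.91 and 6.51 FPKM in cells alone. A library of cells alone lay within the co-culture range of Mcm5 (adjusted p = 0.108). Mcm3 averaged 6.27 ± 0.214 FPKM in co-culture and 6.77 ± 0.241 FPKM in cells alone (SD, n = 3 each; adjusted p = 0.167), and Mcm6 averaged 6.9 ± 0.48 FPKM in co-culture and 7.32 ± 0.468 FPKM in cells alone (SD, n = 3 each; adjusted p = 0.376). Mcm4 was the one subunit with a positive log2 change, 0.066 with a 95% interval of −0.029 to 0.16, and averaged 11.9 ± 0.421 FPKM in co-culture and 11.4 ± 0.126 FPKM in cells alone (SD, n = 3 each; adjusted p = 0.268).

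The ring holds its subunits in equal numbers, and FPKM is per length, so their levels can be set side by side. Mcm2 made up 15.4, 15 and 15.9% of the summed FPKM of Mcm2 to Mcm7 in co-culture libraries 1 to 3, against 17.7, 19.2 and 18.4% in libraries 1 to 3 of cells alone. Mcm4 made up 24.3, 23.7 and 23% in co-culture, against 20.4, 20.9 and 20.6% in cells alone. For both subunits the shares did not overlap between the groups, Mcm2 holding a smaller share and Mcm4 a larger share in co-culture, and a smaller share of 1 subunit raises those of the others. The shares of Mcm3, Mcm5, Mcm6 and Mcm7 overlapped. The 5 subunits other than Mcm2 summed to 42.3, 44 and 42 FPKM in co-culture and 45.8, 43.6 and 45.5 FPKM in cells alone, and these ranges overlapped. In mean FPKM, Mcm7 and Mcm4 were the highest of the ring and Mcm5 the lowest, in co-culture and in cells alone.

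**Figure D2:**
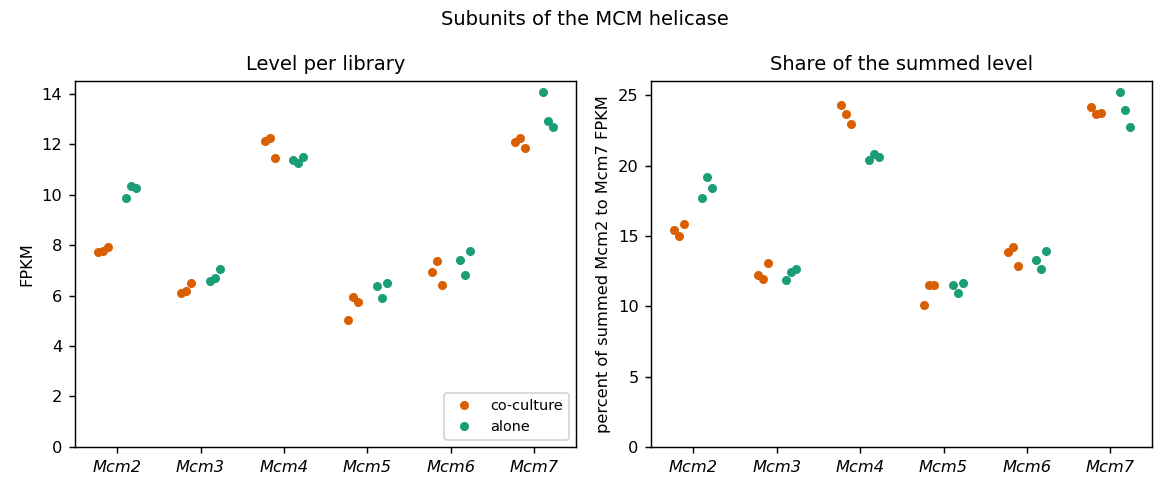
FPKM of each MCM subunit per library (left) and its percent of the summed FPKM of Mcm2 to Mcm7 (right), with 3 co-culture points in orange at the left and 3 points of cells alone in green at the right of each pair. Mcm2 is lower in all 3 co-culture libraries in both panels, and the share of Mcm4 is higher in all 3.

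Orc6, a subunit of the origin recognition complex (chromosome 8 from 85299632 to 85308279), was the other licensing gene that fell and had the highest mean FPKM of the licensing genes. It had 22.3, 22.4 and 23.5 FPKM in co-culture, against 26.5, 25.6 and 24.2 FPKM in cells alone, with every co-culture library below every library of cells alone. The difference was 1.12-fold lower (log2 change −0.16, SE 0.0436, adjusted p = 0.0206). It did not pass without co-culture library 1 or 2 or without library 1 or 2 of cells alone (adjusted p 0.0521 to 0.0711). Orc2, another subunit, averaged 12.3 ± 0.827 FPKM in co-culture and 13.1 ± 0.382 FPKM in cells alone (SD, n = 3 each; adjusted p = 0.205). The loading factor Cdt1 averaged 6.56 ± 0.0261 FPKM in co-culture and 7.02 ± 0.476 FPKM in cells alone (SD, n = 3 each; adjusted p = 0.27). Its inhibitor geminin (Gmnn) averaged 1.95 ± 0.202 FPKM in co-culture and 2.02 ± 0.185 FPKM in cells alone (SD, n = 3 each; adjusted p = 0.761). The ratio of Gmnn to Cdt1 FPKM was 0.263, 0.312 and 0.317 in co-culture libraries 1 to 3 and 0.282, 0.276 and 0.306 in libraries 1 to 3 of cells alone, and the groups overlapped. Orc1 was below the filter at 0.436 ± 0.0892 FPKM in co-culture and 0.534 ± 0.0605 FPKM in cells alone, and so was Cdc6 at 0.62 ± 0.0519 FPKM in co-culture and 0.692 ± 0.0325 FPKM in cells alone (SD, n = 3 each). When all genes of the table were tested, the adjusted p was 0.379 for Orc1 and 0.397 for Cdc6.

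At the fork, 1 of 16 genes fell and 2 rose (6.25% and 12.5%, against 17.9% and 13.9% of all tested genes). Rpa1, the large subunit of the complex that coats unwound DNA (chromosome 11 from 75300259 to 75348454), had 35.4, 32.7 and 34.9 FPKM in co-culture, against 31.5, 29.95 and 30.7 FPKM in cells alone. All 3 co-culture libraries were above all libraries of cells alone, and Rpa1 was 1.12-fold higher (log2 change 0.16, SE 0.041, adjusted p = 0.0152). It did not pass without co-culture library 1 or 3 or without library 2 of cells alone (adjusted p 0.0568 to 0.0647). Its partner Rpa2 averaged 4.62 ± 0.18 FPKM in co-culture and 4.36 ± 0.332 FPKM in cells alone (SD, n = 3 each; adjusted p = 0.403), and the ratio of Rpa1 to Rpa2 FPKM was 7.51, 7.41 and 7.37 in co-culture and 7.08, 7.5 and 6.62 in cells alone, with overlap. Gins4, a subunit of the GINS complex (chromosome 8 from 23226610 to 23237668), had 21, 20.5 and 21.1 FPKM in co-culture, against 19.6, 17.7 and 18.4 FPKM in cells alone. Here too the groups did not overlap, and Gins4 was 1.12-fold higher (log2 change 0.16, SE 0.0438, adjusted p = 0.018). Gins4 did not pass without co-culture library 1 or 3 or without library 2 or 3 of cells alone (adjusted p 0.0531 to 0.0704).

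Per length, Gins4 was the most abundant GINS transcript. It held 72.1, 71.2 and 71.8% of the summed FPKM of the 4 subunits in co-culture and 69.1, 67.3 and 69.8% in cells alone. Gins1 had 1.35, 1.14 and 1.1 FPKM in co-culture, against 1.92, 1.55 and 1.15 FPKM in cells alone, and its groups overlapped (adjusted p = 0.159, and 0.0259 without library 3 of cells alone). Gins2 averaged 2.74 ± 0.448 FPKM in co-culture and 2.72 ± 0.301 FPKM in cells alone (SD, n = 3 each; adjusted p = 0.977), and Gins3 averaged 4.3 ± 0.311 FPKM in co-culture and 4.17 ± 0.142 FPKM in cells alone (SD, n = 3 each; adjusted p = 0.697). The helicase cofactor Cdc45 averaged 2.24 ± 0.0857 FPKM in co-culture and 2.27 ± 0.0394 FPKM in cells alone (SD, n = 3 each; adjusted p = 0.848). Mcm10, which helps to activate the helicase and lay just above the filter, averaged 0.915 ± 0.151 FPKM in co-culture and 1.09 ± 0.0897 FPKM in cells alone (SD, n = 3 each; adjusted p = 0.23).

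Pcna, the sliding clamp, had the highest mean FPKM of the 43 genes, with 104, 115 and 109 FPKM in co-culture, against 112, 111 and 107 FPKM in cells alone. The groups overlapped, and the log2 change was −0.015 with a 95% interval of −0.11 to 0.077 (adjusted p = 0.81). None of the 5 clamp loader genes Rfc1 to Rfc5 passed (adjusted p 0.285 to 0.971), although every co-culture value of Rfc1 was above every value of cells alone. Rfc1 averaged 10.5 ± 0.127 FPKM in co-culture and 10.1 ± 0.203 FPKM in cells alone, the highest of the 5, and Rfc5 averaged 4.18 ± 0.484 FPKM in co-culture and 3.83 ± 0.373 FPKM in cells alone, the lowest (SD, n = 3 each), with Rfc2, Rfc3 and Rfc4 between them in both groups. Lig1, the ligase that joins Okazaki fragments (chromosome 7 from 13277175 to 13311426), had 3.8, 4.26 and 4.13 FPKM in co-culture, against 4.8, 4.78 and 4.44 FPKM in cells alone. All co-culture libraries were lower, and Lig1 was 1.15-fold lower, just inside the threshold (log2 change −0.16, SE 0.0571, adjusted p = 0.0487). Lig1 did not pass with any 1 of the 6 libraries left out (adjusted p 0.0517 to 0.167). The flap nuclease Fen1 averaged 3.79 ± 0.361 FPKM in co-culture and 3.54 ± 0.346 FPKM in cells alone (SD, n = 3 each; adjusted p = 0.459).

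None of the 6 tested polymerase and primase genes passed in limma; the count was also 0 at an unadjusted p below 0.05 and 0 by limma-voom on the recovered reads. Prim2, the large primase subunit, had the smallest p of them, with 3.47, 3.39 and 3.49 FPKM in co-culture, against 3.45, 3.62 and 3.65 FPKM in cells alone. Its groups overlapped (log2 change −0.039, 95% interval −0.15 to 0.077, adjusted p = 0.604). Pold2, an accessory subunit of polymerase delta, had the highest mean, with 20.3, 20.6 and 22.5 FPKM in co-culture, against 20.8, 22.3 and 20.2 FPKM in cells alone (95% interval of the log2 change −0.11 to 0.12). Pold1, the catalytic subunit of polymerase delta, had 2.74, 2.67 and 2.42 FPKM in co-culture, against 2.7, 2.39 and 2.57 FPKM in cells alone (95% interval −0.11 to 0.16). Both delta subunits overlapped between the groups. Pola1, the catalytic subunit of polymerase alpha, had 4.91, 5.33 and 4.89 FPKM in co-culture, against 4.77, 5.47 and 5.05 FPKM in cells alone (95% interval −0.14 to 0.12). Pola2, the accessory subunit of polymerase alpha, averaged 3.01 ± 0.0839 FPKM in co-culture and 3.01 ± 0.132 FPKM in cells alone, and Prim1, the catalytic primase subunit, averaged 5.65 ± 0.186 FPKM in co-culture and 5.66 ± 0.775 FPKM in cells alone (SD, n = 3 each). The intervals of all 6 genes lay between −0.17 and 0.18. Pola1, Pola2, Prim1 and Prim2 form the primase-polymerase alpha complex and summed to 17.1, 17.6 and 16.8 FPKM in co-culture and 17.2, 18.2 and 16.6 FPKM in cells alone. Pole, the catalytic subunit of polymerase epsilon, was below the filter, at 0.908 ± 0.136 FPKM in co-culture and 1.05 ± 0.159 FPKM in cells alone (SD, n = 3 each; adjusted p = 0.559 when all genes were tested).

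Of the 4 genes of nucleotide supply, 2 fell, against 17.9% of all tested genes. Rrm2, the subunit of ribonucleotide reductase that is made in S phase (chromosome 12 from 24708254 to 24714146), had 4.56, 6.41 and 5.44 FPKM in co-culture libraries 1 to 3, against 8.72, 8.51 and 7.55 FPKM in libraries 1 to 3 of cells alone. The 3 co-culture values were all below the lowest value of cells alone. The means were 5.47 ± 0.93 FPKM in co-culture and 8.26 ± 0.626 FPKM in cells alone (SD, n = 3 each), 1.51-fold lower, the largest ratio of the 40 tested genes (log2 change −0.52, SE 0.093, adjusted p = 0.00197). Rrm1, the large subunit, had 10.3, 10.4 and 10.9 FPKM in co-culture, against 10.2, 10.6 and 10.5 FPKM in cells alone and overlapped (log2 change 0.0064, 95% interval −0.091 to 0.10, adjusted p = 0.923). The ratio of Rrm2 to Rrm1 FPKM was 0.444, 0.617 and 0.5 in co-culture libraries 1 to 3 and 0.854, 0.799 and 0.717 in libraries 1 to 3 of cells alone, without overlap. The ratio draws on the same Rrm2 values.

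Tyms, thymidylate synthase (chromosome 5 from 30038546 to 30073645), had 1.61, 1.67 and 2.11 FPKM in co-culture, against 2.18, 2.4 and 2.61 FPKM in cells alone. The highest co-culture library stood just below the lowest of cells alone, and Tyms was 1.33-fold lower (log2 change −0.28, SE 0.0799, adjusted p = 0.0216). It did not pass without co-culture library 1 or 2 or without library 2 or 3 of cells alone (adjusted p 0.0563 to 0.078). Tk1, the thymidine kinase of the salvage route, had 1.13, 0.959 and 1.66 FPKM in co-culture, against 1.71, 1.53 and 1.29 FPKM in cells alone. Its groups overlapped, and co-culture library 3 was near the top of the range of cells alone (adjusted p = 0.276, and 0.0423 without that library). Tk1 rested on 63 to 122 reads per library and Tyms on 283 to 594 reads per library, where the median over the 43 genes and 6 libraries was 467 reads.

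Of the 4 S-phase regulators, 1 fell. Ccne2 encodes cyclin E2, which activates Cdk2 at the start of S phase (chromosome 4 from 11190433 to 11204779), and had 1.01, 1.00 and 0.962 FPKM in co-culture, against 1.23, 1.62 and 1.34 FPKM in cells alone. The co-culture libraries lay close together and below all of cells alone. The difference was 1.41-fold lower (log2 change −0.26, SE 0.0727, adjusted p = 0.0194), and the log2(FPKM + 1) scale understates the ratio of so low a gene. Ccne2 did not pass without co-culture library 3 or without library 2 of cells alone (adjusted p 0.0598 to 0.0727). Ccne1, which encodes cyclin E1, had 2.85, 2.79 and 3.00 FPKM in co-culture, against 3.72, 3.04 and 3.09 FPKM in cells alone (adjusted p = 0.148). Uhrf1, which recruits the maintenance DNA methyltransferase to newly copied DNA, had 2.13, 2.43 and 2.32 FPKM in co-culture, against 2.45, 2.87 and 3.04 FPKM in cells alone. It lay just outside the threshold (log2 change −0.20, adjusted p = 0.0562, and 0.0166 without library 1 of cells alone). E2f1, an E2F transcription factor, had 5.8, 5.84 and 5.85 FPKM in co-culture, against 6.39, 5.96 and 5.98 FPKM in cells alone (log2 change −0.057, adjusted p = 0.401). For all 4 regulators every co-culture library was below every library of cells alone, as for 24.8% of all tested genes, but only Ccne2 passed the test. The E2f1 difference was the smallest of the 4.

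**Figure D3:**
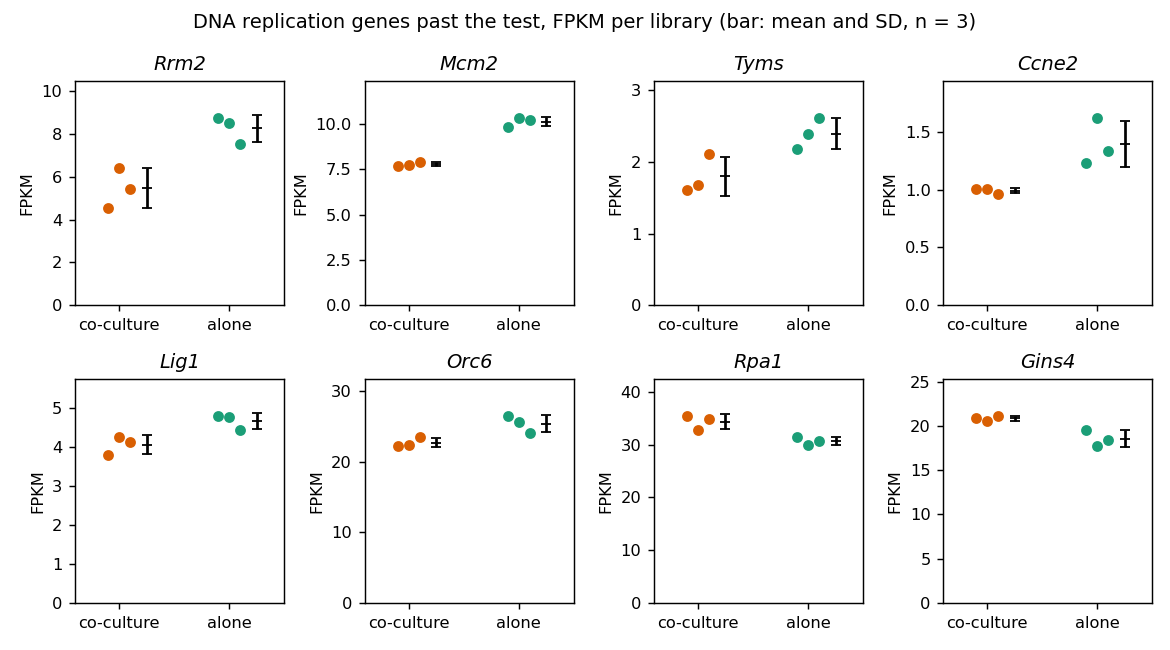
FPKM per library of the 8 replication genes that passed the test, each panel with 3 co-culture points (orange, left) and 3 points of cells alone (green, right) and bars for the mean and SD. The groups do not overlap in any panel; Rrm2 has the largest difference (1.51-fold lower), and Rpa1 and Gins4 are the panels in which co-culture is higher.

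The counts of genes that passed are set side by side by role here, and differences between the roles were not tested. Lower and higher genes numbered 2 and 0 of 10 in licensing, 1 and 2 of 16 at the fork, 0 and 0 of 6 among polymerases, 2 and 0 of 4 in nucleotide supply and 1 and 0 of 4 among S-phase regulators, against 17.9% lower and 13.9% higher of all tested genes. The lower share in licensing and the higher share at the fork lay near those of all tested genes. The median log2 change was −0.094 for licensing, 0.019 for the fork, 0.0037 for polymerases, −0.22 for nucleotide supply and −0.17 for the regulators, against −0.0037 over all tested genes. Licensing genes summed to 94.7, 95.4 and 95.2 FPKM in co-culture libraries 1 to 3 and 106, 102 and 104 FPKM in libraries 1 to 3 of cells alone, with no overlap. That sum includes Orc6, its largest term, and Mcm2, and the other 8 tested licensing genes did not pass. The licensing sum therefore does not show a fall of the whole role. Nucleotide supply genes summed to 17.6, 19.4 and 20.1 FPKM in co-culture libraries 1 to 3 and 22.8, 23.1 and 22 FPKM in libraries 1 to 3 of cells alone, also without overlap. This sum includes Rrm2, which fell most, while its largest term, Rrm1, did not pass (limma adjusted p = 0.923). It does not show a fall of the whole role. The S-phase regulators summed to 11.8, 12.1 and 12.1 FPKM in co-culture libraries 1 to 3. In libraries 1 to 3 of cells alone they summed to 13.8, 13.5 and 13.4 FPKM, again without overlap, although only Ccne2 passed. The polymerase genes, at 41, 41.8 and 42.8 FPKM in co-culture libraries 1 to 3 and 41.8, 44 and 40.2 FPKM in libraries 1 to 3 of cells alone, did overlap, and so did the fork genes, where Pcna is the largest term.

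Further genes of the pathway were read from a list of 71 chosen by function, of which 70 were in the table and 62 were tested. The list was drawn up with earlier results of these data known, so its shares are not independent of them. Of the 62, 22 were lower in co-culture (35.5%, against 17.9% of all tested genes) and 2 were higher (3.2%, against 13.9%), with a median log2 change of −0.084. In licensing and origin firing 8 of 14 fell and 0 rose: Orc4, Mtbp, Mcmbp, Ccna2, Recql4, Dbf4, Rif1 and Cdk2, and 5 fell without library 2 or 3 of cells alone. Orc4, a subunit of the origin recognition complex, averaged 8.05 ± 0.014 FPKM in co-culture and 10.3 ± 0.0308 FPKM in cells alone (SD, n = 3 each; 1.28-fold lower, adjusted p = 0.000316). Mtbp, which acts in origin firing, averaged 5.37 ± 0.207 FPKM in co-culture and 7.26 ± 0.236 FPKM in cells alone (SD, n = 3 each; 1.35-fold lower, adjusted p = 0.000376). Mcmbp, whose protein binds MCM subunits, averaged 9.81 ± 0.146 FPKM in co-culture and 12.2 ± 0.17 FPKM in cells alone (SD, n = 3 each; 1.24-fold lower, adjusted p = 0.000556). At the fork and in maturation 4 of 21 fell (19.0%, near the 17.9% of all tested genes) and 0 rose. Top1, a topoisomerase that relaxes DNA, averaged 72.4 ± 1.51 FPKM in co-culture and 85.4 ± 2.34 FPKM in cells alone (SD, n = 3 each; 1.18-fold lower, adjusted p = 0.000758). Asf1a, a histone chaperone, averaged 8.29 ± 0.117 FPKM in co-culture and 9.98 ± 0.172 FPKM in cells alone (SD, n = 3 each; 1.2-fold lower, adjusted p = 0.00201). Its relative Asf1b averaged 2.64 ± 0.242 FPKM in co-culture and 3.65 ± 0.388 FPKM in cells alone (SD, n = 3 each; 1.39-fold lower, adjusted p = 0.00515). The other gene that fell was Hells, a chromatin remodeller.

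Polymerase epsilon was the polymerase with called subunits. Pole4 averaged 12.3 ± 0.331 FPKM in co-culture and 17 ± 0.51 FPKM in cells alone (SD, n = 3 each; 1.39-fold lower, adjusted p = 3.71e-05), and Pole2 averaged 1.26 ± 0.307 FPKM in co-culture and 1.98 ± 0.167 FPKM in cells alone (SD, n = 3 each; 1.57-fold lower, adjusted p = 0.00913). Its subunit Pole3 was the only one of 6 further polymerase genes to rise: Pole3 averaged 25.5 ± 1.18 FPKM in co-culture and 22.6 ± 0.885 FPKM in cells alone (SD, n = 3 each; 1.13-fold higher, adjusted p = 0.0169). Pole3 did not pass without co-culture library 2 (adjusted p = 0.0628), without library 2 of cells alone (adjusted p = 0.0643) or by limma-voom (adjusted p = 0.0795). The 3 further genes Pold3, Pold4 and Poldip2 did not pass.

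In nucleotide supply 5 of 11 further genes fell and 1 rose (45.5% and 9.1%, against 17.9% and 13.9% of all tested genes). Dut, which makes dUMP for thymidylate synthesis, averaged 21 ± 0.348 FPKM in co-culture and 26.3 ± 1.51 FPKM in cells alone (SD, n = 3 each; 1.254-fold lower, adjusted p = 0.000598). Dctd, which makes dUMP by another route, averaged 5.14 ± 0.292 FPKM in co-culture and 6.93 ± 0.232 FPKM in cells alone (SD, n = 3 each; 1.35-fold lower, adjusted p = 0.000608). Nme1, a nucleoside diphosphate kinase, averaged 37.8 ± 1.81 FPKM in co-culture and 48.1 ± 0.879 FPKM in cells alone (SD, n = 3 each; 1.27-fold lower, adjusted p = 0.000194). Its neighbour Nme2 is similar in sequence and also fell, and whether the counting kept reads of the 2 genes apart was not tested. Rrm2b, the p53-induced alternative to Rrm2, fell too, at 5.09 ± 0.107 FPKM in co-culture and 6.72 ± 0.401 FPKM in cells alone (SD, n = 3 each; adjusted p = 0.000981). Samhd1, which breaks down deoxynucleotides, averaged 54.1 ± 2.21 FPKM in co-culture and 47.3 ± 0.59 FPKM in cells alone (SD, n = 3 each; 1.14-fold higher, adjusted p = 0.00389). Among 10 further S-phase regulators 3 fell and 0 rose. Rb1, the retinoblastoma gene whose protein binds E2F, averaged 4.59 ± 0.263 FPKM in co-culture and 6.45 ± 0.443 FPKM in cells alone (SD, n = 3 each; 1.41-fold lower, adjusted p = 0.000644). Tfdp1, a partner of E2F proteins, averaged 27.2 ± 0.433 FPKM in co-culture and 30.7 ± 0.757 FPKM in cells alone (SD, n = 3 each; 1.13-fold lower, adjusted p = 0.00612). Skp2, a part of a ubiquitin ligase, averaged 6.77 ± 0.258 FPKM in co-culture and 8.3 ± 0.717 FPKM in cells alone (SD, n = 3 each; 1.23-fold lower, adjusted p = 0.00904).

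**Figure D4:**
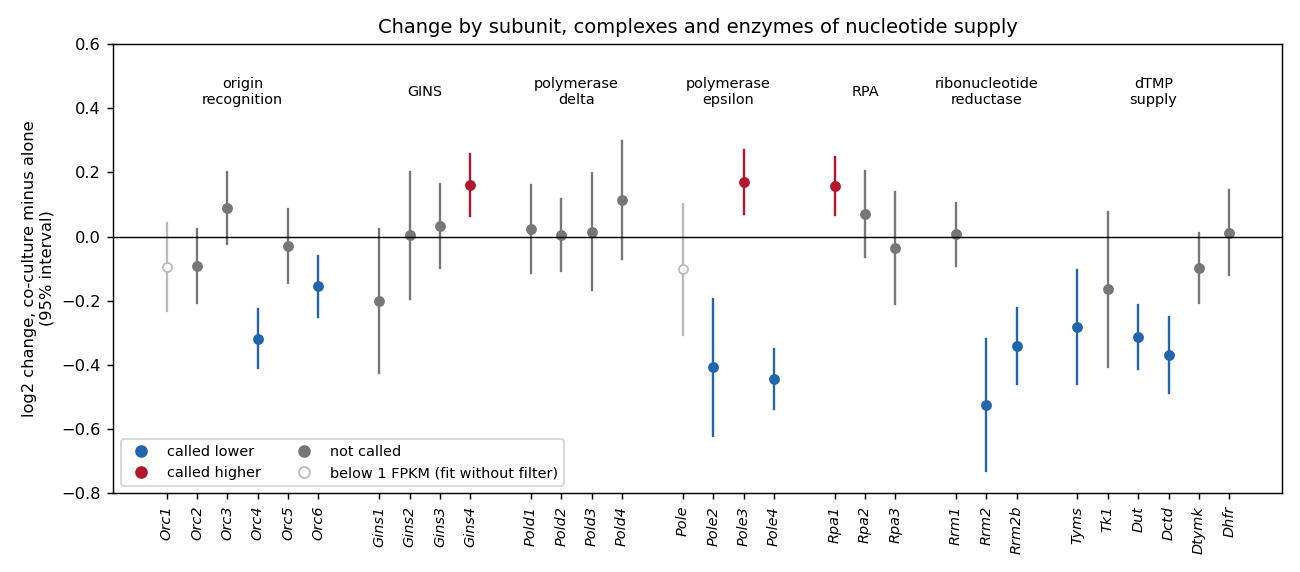
Log2 change (co-culture minus alone, on the log2(FPKM + 1) scale) with its 95% interval for the subunits of 6 complexes and for enzymes of dTMP supply, coloured blue where lower, red where higher and grey where the gene did not pass. Within the origin recognition complex, GINS, RPA and ribonucleotide reductase some subunits passed and others did not. In polymerase epsilon Pole2, Pole3 and Pole4 passed and Pole, an open point, was below the filter. Polymerase delta has none that passed.

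Genes of G2 and mitosis, a later part of the cell cycle, gave 9 lower and 1 higher of 20 tested (45.0% and 5.0%, against 17.9% and 13.9% of all tested genes). Ube2c, which drives the breakdown of mitotic cyclins, averaged 14.1 ± 0.472 FPKM in co-culture and 19.6 ± 0.633 FPKM in cells alone (SD, n = 3 each; 1.39-fold lower, adjusted p = 3.71e-05). Kif11, a motor of the mitotic spindle, averaged 2.57 ± 0.162 FPKM in co-culture and 3.65 ± 0.192 FPKM in cells alone (SD, n = 3 each; 1.42-fold lower, adjusted p = 0.000997). Ccnb1, cyclin B1, averaged 13.3 ± 0.795 FPKM in co-culture and 16.9 ± 0.646 FPKM in cells alone (SD, n = 3 each; 1.26-fold lower, adjusted p = 0.00109). The one gene that rose was Tpx2, a spindle assembly factor. Tpx2 averaged 37.3 ± 1.81 FPKM in co-culture and 32 ± 0.541 FPKM in cells alone (SD, n = 3 each; 1.17-fold higher, adjusted p = 0.00331). The lower count was 7 to 9 and the higher count 1 with each library left out in turn.

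**Figure D5:**
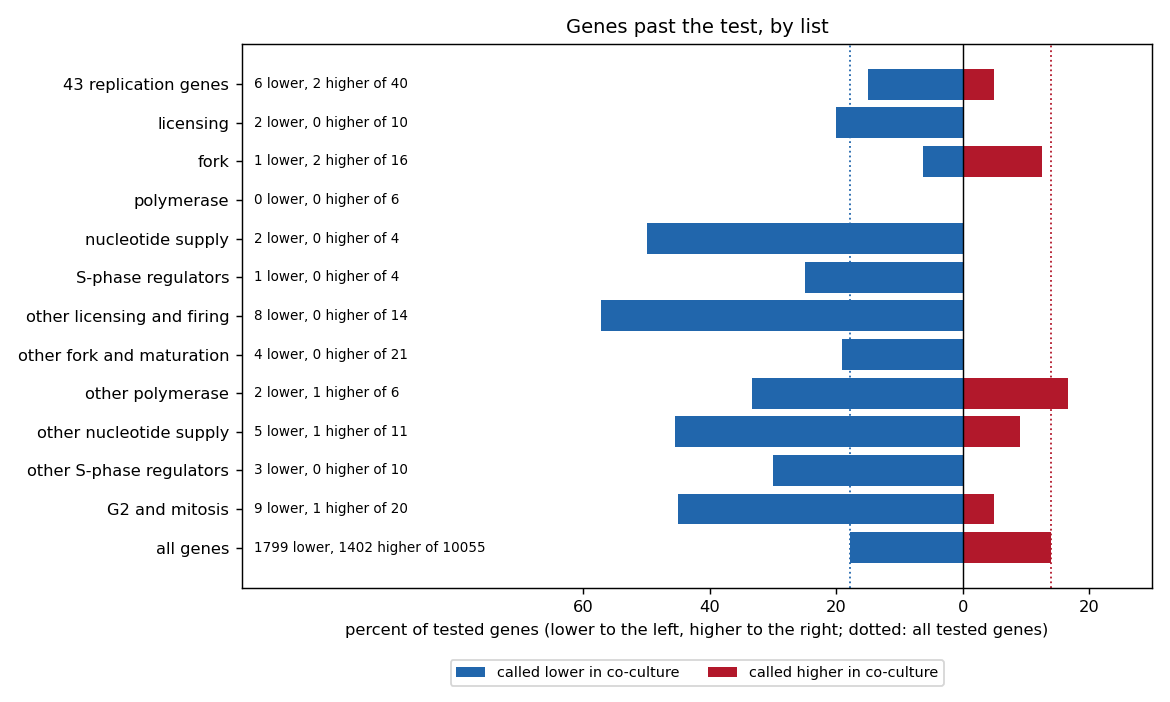
Percent of tested genes that were lower (blue, to the left) and higher (red, to the right) in co-culture for each list, with dotted lines at the values of all tested genes, 17.9% and 13.9%. The bars of the 43 replication genes, at 15.0% and 5.0%, are shorter than the dotted lines. On the left, the fork and polymerase genes among the 43 also stay short of the line. The other role lists and G2 and mitosis pass it. On the right only the further polymerase genes pass the line, at 16.7% (1 of 6).

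Some values are uncertain because other genes share their bases or sequence, and the strand setting of the counting was not given in the sources used here. In the GENCODE annotation of GRCm38, 15 of the 43 genes share exonic bases with another gene, most of all Fen1 (84.2% of its exonic bases, with Gm10143) and Gins2 (67.3%, with Gse1). These shares are of all GENCODE exons of a gene, and the gene models behind the FPKM can differ. The recovered length of Gins2 was 1038 bp, against 4097 bp of exons in GENCODE. The share within the counted models was not tested. Of the genes that passed, Ccne2 shares 17.4% of its exonic bases with Ints8, Orc6 6.93%, Lig1 5.79% and Rpa1 0.789%, and Mcm2, Rrm2, Tyms and Gins4 share none. Rrm2 has a processed pseudogene copy of 419 aligned bases at 95.5% identity. Such copies were also found for Pcna (781 bases, 99.2%), Uhrf1 (1590 bases, 98.3%), Mcm7 (2157 bases, 97.7%) and Tyms (677 bases, 95.6%). Rfc5 (795 bases, 95.5%) and Cdc6 (1260 bases, 95.2%) had them too. Tyms also had shorter matches in other genes.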

How the data were processed

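In all, 6 libraries of 3T3-L1 RNA were compared, 3 co-culture and 3 alone. Per the labels' protocols, TRIzol served for RNA extraction and the VAHTS Universal V6 kit for library preparation. The deposited values are FPKM per gene, made by the authors with fastp, HISAT2 and HTSeq on mm10, per the submitters' processing notes. Versions, annotation and strand setting were not given in the sources used here. Whole reads and library totals were recovered from the FPKM ratios (all 21436 genes resolved, tolerance 1e-09). As a check, the recovered length of the mitochondrial cytochrome c oxidase subunit 1 gene was 1545 bp, equal to its reference length. In each library 98.6% to 98.7% of the total fell in listed genes. Reads are not independent molecules.

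Differences, co-culture minus alone, were tested in R 4.3.3 with limma 3.58.1 (lmFit, then trended eBayes) on log2(FPKM + 1). The 10055 genes averaging 1 FPKM or more entered and 11381 were left out, with Benjamini-Hochberg adjustment and a threshold of 0.05. The script was tested on simulated data. Fold differences are ratios of mean FPKM. A pseudocount of 1 understates changes of low genes.

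The genes, lists, tests and alternatives were chosen with earlier results of these data known. Values were given per library for up to 4 genes of each role by smallest p and for the one with the highest mean; from each further list up to 3 called genes per direction were named. The alternatives were other pseudocounts, filters and scalings, a replicate block, each library left out, limma-voom and a threshold of 0.01. Promoters come from RefSeq GRCm38.p6.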

Additional observations from a re-analysis of the deposited data

How the results depend on the processing

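Over 585 alternative values of single replication genes, 504 kept their direction and their side of the threshold, 38 kept the direction but no longer passed, 5 newly passed and 38 changed sign, all of these in genes that did not pass. The filters, the replicate block and the threshold of 0.01 leave the log2 change itself as it was, so the direction could not change there. A gene that did not pass at 0.05 also cannot pass at 0.01. The 504 therefore include values that could not move. The number of the 43 genes called lower, 6, was 2 without a filter, 3 with a filter at a mean of 5 FPKM (fewer of the genes were tested) and 2 at a threshold of 0.01, and it ranged from 2 to 5 with a library left out. The number called higher, 2, was 0 without a filter and 0 at a threshold of 0.01, and it ranged from 0 to 2 with a library left out. The 2 further replication genes called higher were 1 without a filter, by limma-voom and at 0.01, and 1 to 3 with a library left out. Over all tested genes, 1799 lower and 1402 higher genes became 1073 and 635 at 0.01, and with a library left out 1374 to 1753 and 925 to 1419. The log2 changes that changed sign were, with TPM scaling, −0.00107 for Gins2, −0.00263 for Pola2, −0.000295 for Prim1, −0.00127 for Pold2; with median-ratio scaling, −0.00216 for Gins2, −0.00361 for Pola2, −0.00207 for Prim1, −0.00282 for Pold2, −0.00107 for Rrm1; and by limma-voom 0.00206 for Rfc3. With a library left out, the log2 change ranged from −0.085 to 0.025 for Gmnn, from −0.034 to 0.00397 for Cdc45, from −0.087 to 0.082 for Gins2, from −7.71e-05 to 0.082 for Gins3, from −0.054 to 0.020 for Pcna, from −0.074 to 0.050 for Rfc3, from −0.081 to 0.078 for Rfc4, from −0.050 to 0.033 for Pola1, from −0.024 to 0.022 for Pola2, from −0.096 to 0.057 for Prim1, from −0.010 to 0.061 for Pold1, from −0.039 to 0.044 for Pold2, from −0.016 to 0.022 for Rrm1. Apart from fewer genes or samples in a fit, the cause was not tested.

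Not every same-numbered pair of libraries deviated together (correlations of deviations −0.044, 0.109 and −0.083), and not every library correlated best with its own number. All correlations between the groups were weak (−0.12 to 0.17). They cannot settle whether same-numbered libraries were paired, and the labels give only a number. With the replicate block, 6 of the 43 genes were lower and 2 higher, and 1640 and 1258 of all tested genes. Lig1 no longer passed under the block (adjusted p = 0.0736) and Uhrf1 did (adjusted p = 0.0441), and the other 38 tested genes of the 43 kept their call. The blood cell markers called lower, 2, were 4 with TPM scaling, 4 with the replicate block, 3 by limma-voom, 1 and 0 at pseudocounts of 0.1 and 0.01, 1 with a filter at a mean of 5 FPKM and 0 without a filter, and the fibroblast markers called higher, 5, were 3 without a filter. The planned edgeR and DESeq2 tests were not run, and limma-voom was the one test run on the recovered reads.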
